A study of Mus musculus with 11 samples.

Results

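The D-type cyclins, their CDK inhibitors and the retinoblastoma gene were followed across 4 genotypes of serum-starved mouse fibroblasts. The 10 genes were Ccnd1, Ccnd2, Ccnd3, Cdkn1a, Cdkn1b, Cdkn2a, Cdkn2b, Cdkn2c, Cdkn2d and Rb1, taken by symbol from a gene table of 21684 genes. All 10 were found, and 8 of them passed the filter on low counts that left 13332 tested genes in the whole table. Cdkn2a and Cdkn2b were listed at 0 in every library and were not tested.

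All cells were NIH/3T3, an established line of mouse embryonic fibroblasts, and were either WT or labelled Xap5 KO, Nono KO or Sox5 KO. Each genotype had been grown for 24 h in medium with 10% calf serum and then held for 24 h without serum, a condition in which these cells leave the cell cycle and form a primary cilium, so the WT cells were starved too. There were 2 WT libraries and 3 of each knockout, 11 in all. The labels state neither how the knockouts were made nor whether a line is 1 clone, and they do not say that replicates came from separate cultures, so p-values measure only the spread between these libraries. The gene called Xap5 in the labels is Fam50a in mouse nomenclature, which is general knowledge and not stated in the labels.

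D cyclins bind CDK4 and CDK6, and the resulting kinases phosphorylate RB1, which otherwise holds E2F factors and blocks entry into S phase. The INK4 inhibitors, encoded by Cdkn2a, Cdkn2b, Cdkn2c and Cdkn2d, bind CDK4 and CDK6 directly. The CIP/KIP inhibitors p21 (Cdkn1a) and p27 (Cdkn1b) bind cyclin-CDK complexes, and p27 is known to accumulate in fibroblasts deprived of serum. Much of the control of cyclin D and p27 is at the level of the protein, which these data do not measure.

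The mitochondrial share of counts was 6.20% to 6.28% in WT, 7.89% to 10.3% in Xap5 KO, 7.10% to 7.98% in Nono KO and 6.06% to 6.92% for the Sox5 knockout. Library depth ran from 30205878 to 43498383 counts. Fam50a stood at 11.7% to 12.4% of the WT mean in Xap5 KO, 72.5% to 77.3% in Nono KO and 156% to 189% in Sox5 KO. Nono stood at 7.78% to 9.60% of its WT mean in Nono KO, 117% to 127% in Xap5 KO and 116% to 130% in Sox5 KO. Sox5 stood at 26.3% to 29.1% of its WT mean in Sox5 KO, 24.9% to 31.4% in Xap5 KO and 14.7% to 18.3% in Nono KO. All 10 fibroblast markers examined were above 1 CPM (CPM are counts scaled to a common library size by edgeR's TMM factors) in every genotype. Their summed level was 24610 to 24750 CPM in WT, 18860 to 20190 in Xap5 KO, 49290 to 54010 in Nono KO and 20920 to 21320 for the Sox5 knockout. None of 4 epithelial and none of 4 skeletal muscle markers reached a group mean of 1 CPM in any genotype. The 4 blood cell markers summed to 1.91 to 2.28 CPM in WT, 3.01 to 3.38 in Xap5 KO, 7.26 to 10.9 in Nono KO and 1.88 to 2.68 in Sox5 KO, with Itgam at no more than 3 counts in every library. Endothelial markers summed to no more than 2.79 CPM and neural markers to no more than 6.01 CPM in any library. The part of these markers and of the mitochondrial share in the results was not tested. In bulk RNA, fewer cells of a kind and less RNA per cell cannot be told apart.

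The promoters of Cdkn1a and Cdkn1b are shown because these CIP/KIP genes moved in opposite directions in the Xap5 and Sox5 knockouts. In Xap5 KO the log2 change of Cdkn1b was -0.04 once the median change of its chromosome was taken out. The part of these sequences in the changes was not tested. Each is the 150 bases upstream of the RefSeq transcript start on the plus strand of GRCm38.p6, with matches to the Sp1 motif (GGGCGG, either strand) in capitals. The Cdkn1a window is chr17:29093619-29093768 and the Cdkn1b window is chr6:134920251-134920400.
Cdkn1a: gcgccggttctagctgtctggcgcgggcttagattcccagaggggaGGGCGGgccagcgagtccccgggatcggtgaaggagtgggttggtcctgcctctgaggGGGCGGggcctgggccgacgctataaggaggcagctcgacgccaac
Cdkn1b: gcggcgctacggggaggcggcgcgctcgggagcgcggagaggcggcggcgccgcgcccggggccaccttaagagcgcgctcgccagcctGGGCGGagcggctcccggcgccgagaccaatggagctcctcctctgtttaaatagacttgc

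RefSeq promoter windows of 250 upstream bases matched 7 of the 10 genes by symbol (Ccnd3, Cdkn1a, Cdkn1b, Cdkn2a, Cdkn2b, Cdkn2c and Cdkn2d). In the window nearest the start of the principal transcript annotated in GENCODE, 5 of the 7 held an Sp1 match, as did 32.7% of all 32851 windows. Cdkn2c held none in its nearest window and 3 in another. Of the other motifs searched on both strands, CHR (TTTGAA) was in the Cdkn2b window and in 16% of all windows. CRE (TGACGTCA or TGACGTAA) was in the same Cdkn2b window and in 1.98% of all windows. No member window held E2F (TTTCGCGC or TTTGGCGC, 0.654% of all windows), AP-1 (TGANTCA, 6.75%) or E-box (CACGTG, 6.02%). The printed windows held no other of these motifs.

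Among the 8 detected members, compared per kilobase of longest transcript, Cdkn1a had the highest level in WT, at 82.9 CPM per kb, followed by Ccnd1 at 67.1, Ccnd2 at 32.9, Ccnd3 at 26.9, Cdkn1b at 22.7 and Cdkn2c at 18.2. Cdkn2d and Rb1 were much lower, at 4.82 and 4.40 CPM per kb. Starved WT cells thus held RNA of all 3 D cyclins together with that of p21 and p27. The spacing of these levels depends on the transcript length assumed for each gene.

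Each knockout was compared with WT in a single edgeR fit of all 11 libraries, and a gene was called where its p-value, adjusted over all tested genes, was under 0.05. In Xap5 KO, 4 members rose and 3 fell, against 23.2% of all tested genes called higher and 22.3% called lower. In Nono KO, 6 members rose and 0 fell, against 23.5% and 25.1% of all tested genes. In Sox5 KO, 2 rose and 3 fell, against 30.6% and 30.3%. The 2 uncalled members in Nono KO were Cdkn1b and Cdkn2d. No member was lower in Nono KO at an unadjusted p under 0.05, and DESeq2 called none lower either. The medians of the 8 tested members were 0.35, 0.45 and 0.00 on the log2 scale in the Xap5, Nono and Sox5 knockouts, against 0.00, -0.02 and -0.01 for all tested genes. These 3 comparisons share the WT libraries. No member changed by 2-fold or more against WT in a called comparison, while 10.3%, 11.2% and 17.2% of all tested genes did.

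**Figure D1:**
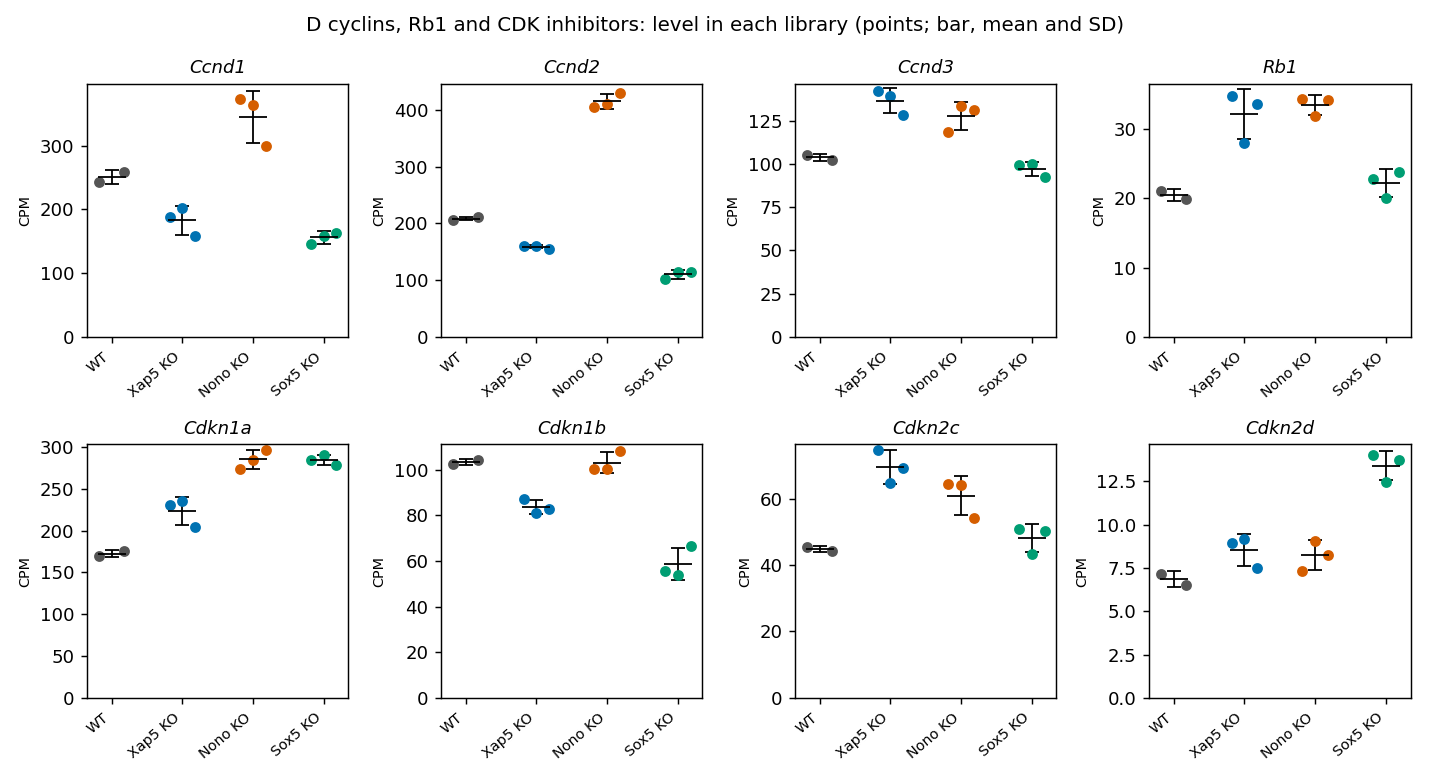
Level of each of the 8 tested genes in CPM (vertical axis, from 0) by genotype. Points are libraries, and the bar shows the mean and SD of 2 WT or 3 knockout libraries. Ccnd1 and Ccnd2 are highest in Nono KO and lowest in Sox5 KO, and Cdkn1a is lowest in WT.

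Ccnd2 had the widest range of the D cyclins. This gene encodes cyclin D2 and lies on chromosome 6. Its levels were 206 and 211 CPM in WT, 159.9, 161 and 156 in Xap5 KO, 405, 409 and 429.7 in Nono KO, and 102, 115 and 115 in Sox5 KO. No library of a genotype overlapped with a library of another, and the order was Nono KO, WT, Xap5 KO and Sox5 KO. On the log2 scale, Ccnd2 rose by 0.99 in Nono KO (SE 0.0604, edgeR adjusted p = 2.44e-11), a ratio of 1.99. It fell by 0.92 in Sox5 KO (SE 0.0612, edgeR adjusted p = 3.17e-11) and by 0.39 in Xap5 KO (SE 0.0607, edgeR adjusted p = 1.74e-05). Between the knockouts, it was 3.75-fold higher in Nono KO than in Sox5 KO (log2 difference 1.91, SE 0.0546, edgeR adjusted p = 7.78e-17), the widest difference of any member in these 6 comparisons. The tested genes of chromosome 6 had median changes of -0.25, -0.19 and -0.35 in the Xap5, Nono and Sox5 knockouts. With each chromosome's median taken out of the fit (the chromosome offset), the change of Ccnd2 in Xap5 KO was -0.13 and not called (edgeR adjusted p = 0.126), and that in Sox5 KO was -0.56 and still called. With trends in transcript length and GC content taken out instead (the length and GC offset), the change in Sox5 KO was -0.53 and still called.

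Ccnd1, which encodes cyclin D1, the D cyclin best known as a sensor of mitogens, followed the same order. It stood at 243 and 259 CPM in WT, 189, 202 and 158 in Xap5 KO, 372, 363 and 299 in Nono KO, and 145, 159 and 164 in Sox5 KO. Every Nono KO library was above WT and every Xap5 KO and Sox5 KO library below it, and replicate 3 of Nono KO lay apart from its other replicates. Ccnd1 rose in Nono KO by 0.46 (SE 0.105, edgeR adjusted p = 0.00292) and fell by 0.46 in Xap5 KO (SE 0.106, edgeR adjusted p = 0.00291) and by 0.69 in Sox5 KO (SE 0.106, edgeR adjusted p = 6.79e-05). The Xap5 KO and Sox5 KO libraries overlapped, with a log2 difference of 0.23 that was not called (SE 0.0953, edgeR adjusted p = 0.052). The call depended on the setting. The difference was 0.22 and called in the edgeR fit with a replicate block (adjusted p = 0.0222), and 0.41 and called with the chromosome offset (edgeR adjusted p = 0.00209). It was also called with library totals (0.29), the length and GC offset (0.26) and DESeq2 (0.22). With at least 10 counts in every library, and with only the 2 genotypes, it was 0.23 and called. It was 0.23 and not called with no filter on low counts, 0.15 and not called without Xap5 KO replicate 2 (edgeR adjusted p = 0.195), and 0.32 and called without Xap5 KO replicate 3 (edgeR adjusted p = 0.00234). Scaled by library totals alone, the rise in Nono KO was 0.29 and still called. In GENCODE, 1100 of the 4709 exon bases of Ccnd1 overlap LTO1 on the opposite strand. LTO1 stood at 17.2 CPM in WT and had changes of 0.16, -0.28 and 0.68 in the Xap5, Nono and Sox5 knockouts, opposite in sign to Ccnd1 in each and called in the last 2.

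Ccnd3, which encodes cyclin D3, did not follow the other D cyclins in Xap5 KO. Its levels were 105 and 102 CPM in WT, 142, 139 and 128 in Xap5 KO, 119, 133 and 131 in Nono KO, and 99.2, 99.8 and 92.4 in Sox5 KO. The Xap5 KO and Nono KO libraries overlapped with each other and lay above all others. Ccnd3 rose by 0.39 in Xap5 KO (SE 0.0668, edgeR adjusted p = 6e-05) and by 0.30 in Nono KO (SE 0.0668, edgeR adjusted p = 0.000932). Its change of -0.10 in Sox5 KO was not called (edgeR adjusted p = 0.225). Scaled by library totals alone, the value in Nono KO was 0.13 and not called (edgeR adjusted p = 0.0864), and that in Sox5 KO was -0.21 and called (edgeR adjusted p = 0.00742). The tested genes of chromosome 17 had a median of 0.18 in Xap5 KO, and with the chromosome offset the rise of Ccnd3 there was 0.21 and still called. Of its 8775 exon bases, 361 overlap Bysl on the opposite strand, which changed by 0.35, 0.39 and 0.45 in the Xap5, Nono and Sox5 knockouts, all called.

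The D cyclins therefore differed in their sum and in their mix. Their summed level per kb was 127 ± 2.93 CPM per kb for WT (SD, n = 2). The knockouts had 191 ± 7.90 (Nono KO), 109 ± 8.06 (Xap5 KO) and 84.3 ± 3.20 (Sox5 KO, SD, n = 3 for each knockout). No library of a genotype overlapped with another in this sum. Ccnd1 was the largest part in every library, with means of 52.9% ± 1.11 for WT, 49.4% ± 1.45 for Sox5 KO, 48.2% ± 3.80 for Nono KO and 44.6% ± 2.27 for Xap5 KO. The share of Ccnd3 was 21.2% ± 0.897 in WT, 17.4% ± 1.44 in Nono KO, 32.4% ± 1.05 in Xap5 KO and 29.9% ± 1.99 in Sox5 KO. The share of Ccnd2 was 25.9% ± 0.213 in WT and 34.4% ± 2.55 in Nono KO. In Xap5 KO and Sox5 KO, at 23.0% ± 1.34 and 20.7% ± 0.623, Ccnd2 was the smallest part. These shares were not tested. Without scaling by length, Ccnd2 was the largest part in Nono KO, at 46.8% against 38.8% for Ccnd1. Ccnd3 was then the smallest part in Xap5 KO, at 28.6% against 33.3% for Ccnd2, and in Sox5 KO, at 26.7% against 30.4%.

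**Figure D2:**
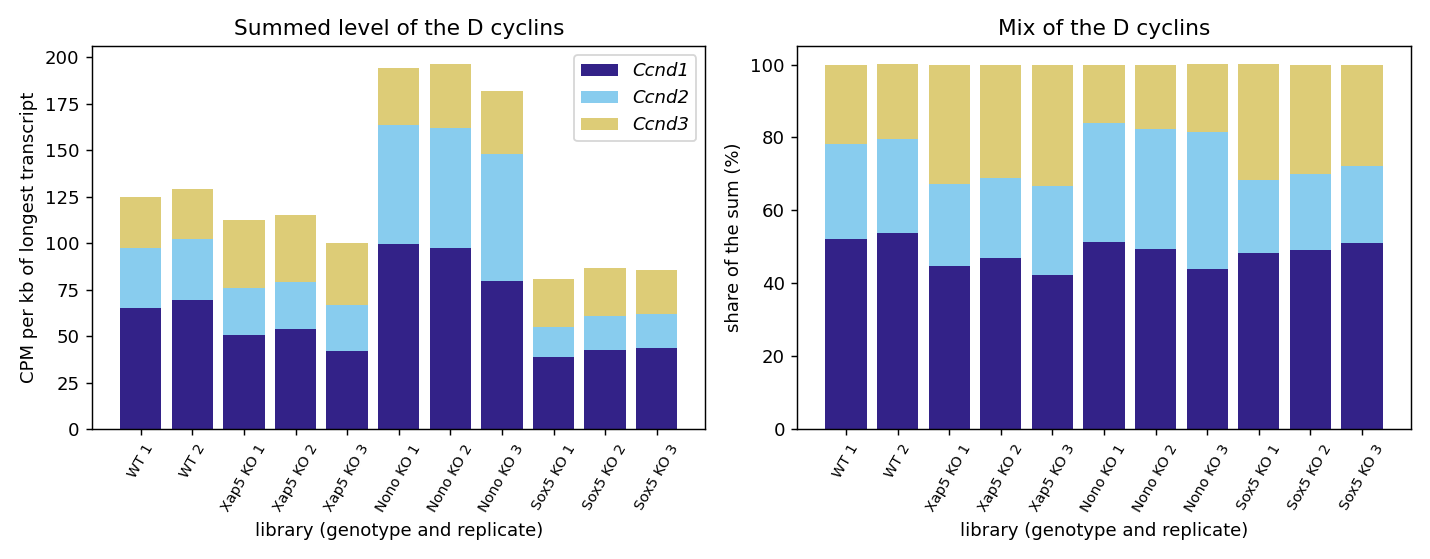
Left, level of Ccnd1, Ccnd2 and Ccnd3 in CPM per kb of longest transcript, stacked for each of the 11 libraries. Right, the share of each in that sum in percent. The sum is highest in the 3 Nono KO libraries and lowest in the 3 Sox5 KO libraries, and the Ccnd3 share is larger in Xap5 KO and Sox5 KO than in WT and Nono KO.

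Rb1, the common substrate of the cyclin D kinases, stood at 21.1 and 19.8 CPM in WT, 34.7, 28.0 and 33.6 in Xap5 KO, 34.4, 31.8 and 34.1 in Nono KO, and 22.8, 19.99 and 23.8 in Sox5 KO. Every library of Xap5 KO and Nono KO lay above WT, and Sox5 KO overlapped with WT. Rb1 rose by 0.65 in Xap5 KO (SE 0.107, edgeR adjusted p = 4.73e-05) and by 0.71 in Nono KO (SE 0.107, edgeR adjusted p = 1.43e-05). Its change of 0.12 in Sox5 KO was not called (edgeR adjusted p = 0.364). It was 0.30 and called under the length and GC offset (edgeR adjusted p = 0.0236), and -0.09 and not called under the chromosome offset (edgeR adjusted p = 0.509). Rb1 was also higher in Xap5 KO and in Nono KO than in Sox5 KO, by 0.53 (SE 0.0964) and 0.59 (SE 0.0963), both called. These differences were 0.30 and 0.35 under the length and GC offset, and that between Xap5 KO and Sox5 KO was 0.88 under the chromosome offset, all called. Its exons overlap Rcbtb2 by 488 bases and Lpar6 by 408 of 6015, both on the opposite strand. Rcbtb2, at 51.2 CPM in WT, had changes of -0.26, -0.10 and 0.10 in the Xap5, Nono and Sox5 knockouts, of which the first was called. Lpar6, at 3.77 CPM, had changes of 0.47, 1.06 and 1.57, of which the last 2 were called.

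Cdkn1a, which encodes p21, an inhibitor induced by p53 and by other stress pathways, was the only member called with the same sign in all 3 knockouts, as were 15.9% of all tested genes. It stood at 169.7 and 175 CPM in WT, 231, 235 and 204 in Xap5 KO, 274, 285 and 297 in Nono KO, and 285, 290.5 and 279 in Sox5 KO. Every knockout library was above both WT libraries. Cdkn1a rose by 0.37 in Xap5 KO (SE 0.0641, edgeR adjusted p = 7.04e-05), by 0.73 in Nono KO (SE 0.0640, edgeR adjusted p = 7.69e-09) and by 0.72 in Sox5 KO (SE 0.0641, edgeR adjusted p = 4.56e-09). Nono KO and Sox5 KO overlapped, with a log2 difference of 0.00 (SE 0.0571, edgeR adjusted p = 0.981). Xap5 KO was lower than each of them by a called difference, -0.35 against Nono KO and -0.35 against Sox5 KO (SE 0.0571 and 0.0572). The former was -0.53 under the chromosome offset and the latter -0.15 under the length and GC offset, both still called. With the chromosome offset the rise in Xap5 KO was 0.19 and still called. Under the length and GC offset, Nono KO and Sox5 KO differed by 0.21, which was called (edgeR adjusted p = 0.00249).

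Cdkn1b, which encodes p27, fell in the Xap5 and Sox5 knockouts. It stood at 102 and 104 CPM in WT, 87.0, 80.8 and 82.8 in Xap5 KO, 100.1, 100.4 and 108 in Nono KO, and 55.5, 53.9 and 66.6 in Sox5 KO. The Nono KO libraries overlapped with WT, Xap5 KO lay below them and Sox5 KO lay below all others. Cdkn1b fell by 0.82 in Sox5 KO (SE 0.0796, edgeR adjusted p = 1.18e-08) and by 0.31 in Xap5 KO (SE 0.0789, edgeR adjusted p = 0.00287). Its change in Nono KO was -0.01 (SE 0.0787, edgeR adjusted p = 0.95) and turned sign under several settings. Sox5 KO was also lower than Xap5 KO by 0.51 and lower than Nono KO by 0.81, both called, and the former was 0.33 and still called under the length and GC offset. Cdkn1b shares chromosome 6 with Ccnd2, and with the chromosome offset its change in Xap5 KO was -0.04 and not called (edgeR adjusted p = 0.736). Under the same offset its fall in Sox5 KO was -0.46 and still called, and its value in Nono KO was 0.21 and called (edgeR adjusted p = 0.0462).

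**Figure D3:**
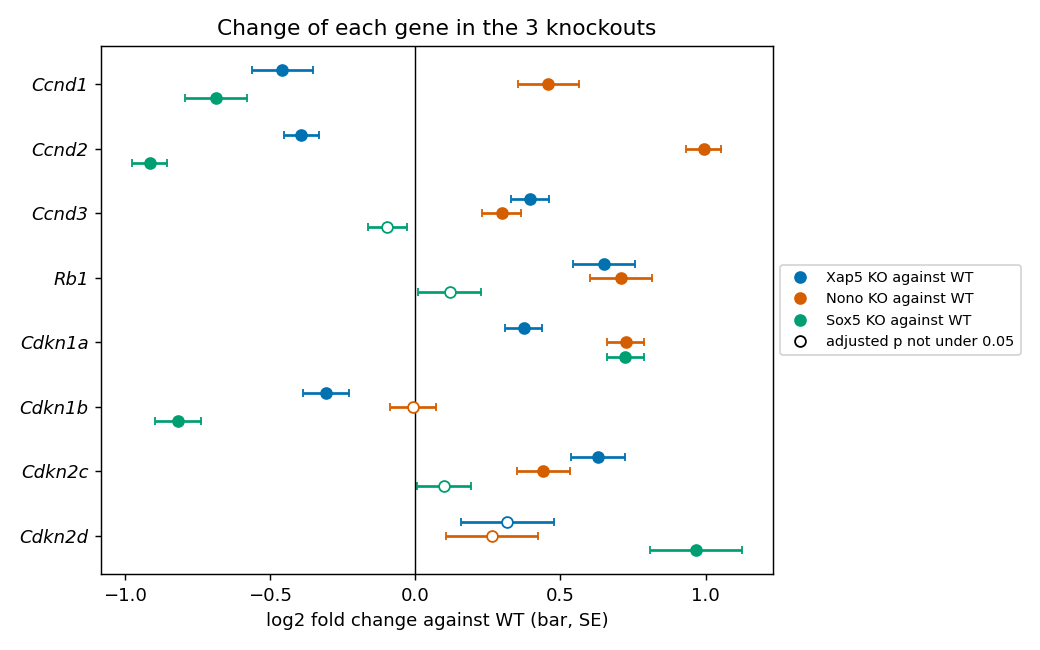
Log2 fold change against WT (horizontal axis) of the 8 tested genes in each knockout, with the SE as the bar. Filled points had an edgeR adjusted p under 0.05 and open points did not. Cdkn1a lies to the right of 0 in all 3 knockouts, and Ccnd1 and Ccnd2 lie to the right in Nono KO and to the left in the other 2.

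Of the INK4 inhibitors, Cdkn2c and Cdkn2d were expressed. Cdkn2c, which encodes p18, stood at 45.5 and 44.3 CPM in WT, 74.7, 64.5 and 69.1 in Xap5 KO, 64.4, 64.1 and 54.2 in Nono KO, and 50.8, 43.2 and 50.2 in Sox5 KO. Sox5 KO overlapped with WT, and the other knockouts were above it. Cdkn2c rose by 0.63 in Xap5 KO (SE 0.0927, edgeR adjusted p = 1.22e-05) and by 0.44 in Nono KO (SE 0.0928, edgeR adjusted p = 0.000516). Scaled by library totals alone, the rise in Nono KO was 0.28 and still called. Its change of 0.10 in Sox5 KO was not called (edgeR adjusted p = 0.373). The tested genes of chromosome 4 had a median of -0.25 in Sox5 KO. With the chromosome offset the change in Sox5 KO was 0.34 and called (edgeR adjusted p = 0.00365), and the called difference of 0.34 between Nono KO and Sox5 KO was 0.10 and not called (edgeR adjusted p = 0.308).

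Cdkn2d, which encodes p19INK4d, was the least abundant inhibitor detected. It stood at 7.17 and 6.54 CPM in WT, 8.93, 9.18 and 7.50 in Xap5 KO, 7.35, 9.08 and 8.26 in Nono KO, and 14.0, 12.4 and 13.8 in Sox5 KO. The Sox5 KO libraries were all above every other library. Cdkn2d rose in Sox5 KO by 0.97 (SE 0.159, edgeR adjusted p = 2.52e-05), with means of 6.85 CPM for WT and 13.4 CPM for Sox5 KO. Every Xap5 KO and Nono KO library was above WT by a small margin, and neither the value of 0.32 for Xap5 KO nor that of 0.26 for Nono KO was called (edgeR adjusted p = 0.114 and 0.185). The log2 difference was -0.65 for Xap5 KO minus Sox5 KO (SE 0.141, edgeR adjusted p = 0.000417) and -0.70 for Nono KO minus Sox5 KO (SE 0.141, edgeR adjusted p = 0.000184). Under the length and GC offset, the rise in Sox5 KO was 0.56 and still called, and the difference between Xap5 KO and Sox5 KO was -0.31 and not called (edgeR adjusted p = 0.0718). That between Nono KO and Sox5 KO was -0.37 and still called.

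Cdkn2a, which encodes p16INK4a and p19ARF, and its neighbour Cdkn2b, which encodes p15INK4b, had 0 counts in all 11 libraries. NIH/3T3 is known as a line that has lost the Cdkn2a locus. A count of 0 allows up to 3 counts in a library, which is 0.0681 to 0.102 CPM depending on the library, and covers counting error only. No fold is given for these genes. The CIP/KIP inhibitor p57, encoded by Cdkn1c, was likewise listed at 0 in all 11 libraries.

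Direct comparison of the knockouts gave 4 called members for Xap5 KO and Nono KO, against 53% of all tested genes. It gave 7 for Xap5 KO and Sox5 KO (5 higher and 2 lower in Xap5 KO), against 61.6% of all tested genes called, 31.1% higher and 30.4% lower. It gave 7 for Nono KO and Sox5 KO (6 higher and 1 lower in Nono KO), against 63.5% called, 30.9% higher and 32.6% lower. All 4 called members in the comparison of Xap5 KO and Nono KO (Ccnd1, Ccnd2, Cdkn1a and Cdkn1b) were lower in Xap5 KO, where 25.9% of all tested genes were lower and 27.1% higher. The member that was lower in Nono KO than in Sox5 KO was Cdkn2d. At 2-fold or more, the numbers were 1 (Ccnd2) for Xap5 KO and Nono KO, against 11.1%, 0 for Xap5 KO and Sox5 KO, against 15%, and 2 (Ccnd1 and Ccnd2) for Nono KO and Sox5 KO, against 17%. Of the 8 tested members, 3 (Ccnd1, Ccnd2 and Cdkn1a) were called against WT in all 3 knockouts, as were 22.3% of all tested genes. Leaving out each library in turn ended no call of a member against WT or between knockouts.

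The 8 genes fell into a few shapes across the 11 libraries, given as a description because the libraries of a genotype are not independent points. Ccnd1 and Ccnd2 were alike (Pearson's r = 0.957 on log2 CPM), as were Rb1 and Cdkn2c (r = 0.897) and Ccnd3 and Cdkn2c (r = 0.838). Close behind were Ccnd2 and Cdkn1b (r = 0.833), Ccnd3 and Rb1 (r = 0.825) and Ccnd1 and Cdkn1b (r = 0.815). Cdkn1b and Cdkn2d were opposed (r = -0.879). Cdkn1a was not close to the D cyclins, with r = 0.026 for Ccnd1, 0.094 for Ccnd2 and 0.024 for Ccnd3. For the 3 members whose group means spanned the widest range, the most alike of all tested genes were Flnc and Tiam1 for Ccnd2 (r = 0.991 each), Mgat2 (r = 0.992) and Tiam1 (r = 0.978) for Ccnd1, and Pgam1 and Vcam1 for Cdkn2d (r = 0.975 each). All r values rest on 11 libraries of 4 genotypes, and libraries of a genotype share its mean.

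The kinases that the D cyclins activate did not all move with them. Cdk4 had a mean of 359 ± 1.80 CPM for WT (SD, n = 2), 421 ± 9.29 for Sox5 KO, 293 ± 12.7 for Nono KO and 293 ± 27.7 for Xap5 KO (SD, n = 3 for each knockout). It fell by 0.29 in Xap5 KO (edgeR adjusted p = 0.00117) and by 0.29 in Nono KO (edgeR adjusted p = 0.000961), and rose by 0.23 in Sox5 KO (edgeR adjusted p = 0.00555). Of its 3249 exon bases, 641 overlap Tspan31 on the opposite strand. Tspan31, at 90.3 CPM in WT, fell by 0.53 in Xap5 KO, where Cdk4 also fell, and its values elsewhere, 0.05 for Nono KO and -0.14 for Sox5 KO, missed the threshold. Cdk6, its close paralog, stood at 119 ± 2.15 CPM in WT and 48.2 ± 3.76 in Sox5 KO, a fold of 0.405 (SE 0.0815 on the log2 scale, edgeR adjusted p = 1.04e-11). It fell by 0.24 in Nono KO (edgeR adjusted p = 0.0187), and its change of -0.07 in Xap5 KO was not called. Cdk2, the partner of cyclin E, fell by 0.34 in Nono KO (edgeR adjusted p = 0.00693), and its values elsewhere, 0.10 for Xap5 KO and 0.19 for Sox5 KO, missed the threshold.

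Cyclin E acts after cyclin D. Ccne1 rose from 14.1 ± 0.551 CPM in WT (SD, n = 2) to 32.0 ± 0.500 in Xap5 KO and to 26.7 ± 1.49 for Sox5 KO (SD, n = 3 for each knockout), by 1.19 and 0.93 on the log2 scale (edgeR adjusted p = 1.22e-07 and 1.73e-06). In Nono KO it was at -0.22 and not called. Ccne2 rose in Xap5 KO by 0.92 (edgeR adjusted p = 0.0131) and was at 0.25 in Nono KO and -0.61 in Sox5 KO, neither called. Of the 3495 exon bases of Ccne2, 609 overlap Ints8 on the opposite strand. Ints8, at 53.7 CPM in WT, had changes of -0.07, -0.34 and -0.25 in the Xap5, Nono and Sox5 knockouts, of which the last 2 were called. The Nono KO libraries of Ccne2, at 17.2, 14.3 and 7.32 CPM, lay on both sides of WT at 11.7 and 10.1 CPM. E2f1, an activating E2F, rose by 0.41 in Xap5 KO (edgeR adjusted p = 0.000664), fell by 0.43 in Nono KO (edgeR adjusted p = 0.000299) and was at 0.16 in Sox5 KO, not called. Ccnd1 and Ccnd2 thus had the opposite sign to E2f1 and Ccne1 in Xap5 KO.

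The RB relatives differed from Rb1. Rbl2, which encodes p130, the pocket protein typical of quiescent cells, had libraries from 74.9 to 78.1 CPM in WT. Its means were 75.9 ± 0.552 for Sox5 KO, 51.1 ± 1.77 for Nono KO and 47.6 ± 0.471 for Xap5 KO (SD, n = 3 for each knockout). It fell by 0.68 in Xap5 KO (edgeR adjusted p = 4.66e-08) and by 0.58 in Nono KO (edgeR adjusted p = 3.86e-07), the knockouts in which Rb1 rose, and was at -0.01 in Sox5 KO. Of the 7558 exon bases of Rbl2, 693 overlap Aktip and 892 overlap Gm45464, both on the opposite strand. Aktip, at 31 CPM in WT, had changes of -0.115, 0.280 and 0.582 in the Xap5, Nono and Sox5 knockouts, of which the last 2 were called. Rbl1, which encodes p107, was not called in any knockout, with 0.35, -0.08 and -0.18 (edgeR adjusted p = 0.0512, 0.666 and 0.297).

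Over the whole list of 50 G1/S partner genes, 48 were tested. In Xap5 KO 16 rose and 10 fell, in Nono KO 8 rose and 16 fell, and in Sox5 KO 11 rose and 16 fell. The called shares were 54.2%, 50% and 56.2%, against 45.5%, 48.6% and 60.9% of all tested genes. Without WT replicate 1, and likewise without WT replicate 2, 15 were called in Nono KO in place of 24. The list's medians were 0.11, -0.10 and 0.02. Past 2-fold in Xap5 KO were rises of Mybl2 by 1.68, Ccna2 by 1.33, Ccne1 by 1.19, Cdkn3 by 1.17 and E2f8 by 1.02, with falls of Fbxo31 (fold 0.461) and E2f6. Mybl2 encodes the activator B-MYB, and Ccna2 encodes cyclin A2. In Nono KO they were rises of Cdkn3 by 1.11 and of Myc by 1.02, the latter an inducer of G1 genes. In Sox5 KO they were falls of Foxo3 by 1.73, Gsk3b by 1.26, Fbxo31 by 1.21 and Foxo1 by 1.13, with Cdk6 and E2f6. The longest transcripts of Cdk6, Foxo1, Gsk3b and Foxo3 have 11.5, 8.66, 8.3 and 6.85 kb. Those of Fbxo31 and E2f6 have 4.36 and 3.02 kb. Values of single partner genes under the chromosome or length and GC offsets are not given here. The part of transcript length in these falls was not tested. FOXO factors are known activators of Cdkn1b, and GSK3B and FBXO31 are known to take part in cyclin D1 turnover. Fbxo31 also fell by 0.89 in Nono KO.

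E2f6, which encodes a repressor of the E2F family, was nearly absent in 2 knockouts. It had 179 and 202 counts in WT and 139, 142 and 46 counts in Nono KO. The Xap5 KO libraries had 0, 2 and 0 counts, and each Sox5 KO library had 0. Against an assumed floor of 3 counts per library, the Xap5 knockout was 59.5-fold lower than WT and the Sox5 knockout 46.7-fold lower. Both falls were called. The floor covers counting error only, and low values in this table are not plain read counts, so these folds are not firm bounds. Its change in Nono KO was not called (edgeR adjusted p = 0.21).

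Genes of S phase and mitosis were counted in the same way. Of 26 S-phase genes, 15 rose and 1 (Cdt1) fell in Xap5 KO, 3 rose and 8 fell in Nono KO, and 8 rose and 4 fell in Sox5 KO, with medians of 0.57, -0.09 and 0.18. The called shares were 61.5%, 42.3% and 46.2%, against 45.5%, 48.6% and 60.9% of all tested genes, so the share was above that of all genes in Xap5 KO and below it in the others. For Sox5 KO the called number was 6 in place of 12 without WT replicate 2 or without Sox5 KO replicate 2. Of 26 mitosis genes, 25 rose and 1 (Cdk1) fell in Xap5 KO, 18 rose and 0 fell in Nono KO, and 14 rose and 3 (Mki67, Cenpe and Cenpf) fell in Sox5 KO. Their medians were 1.124, 0.607 and 0.394. The called shares were 100%, 69.2% and 65.4%, against the same 45.5%, 48.6% and 60.9%. Of all tested genes, 23.2%, 23.5% and 30.6% were called higher and 22.3%, 25.1% and 30.3% lower in the Xap5, Nono and Sox5 knockouts. In Sox5 KO the mitosis share called in either direction was near that of all genes, while 14 of the called mitosis genes rose and 3 fell. Without WT replicate 2 the called number was 11 in place of 18 in Nono KO and 10 in place of 17 in Sox5 KO. Of the S-phase genes called in the same direction in all 3 knockouts, Tyms had the largest change, with rises of 1.51, 0.37 and 0.40 in the Xap5, Nono and Sox5 knockouts, followed by Tk1 with 1.41, 0.61 and 1.38. Cdt1 went the other way in all 3, with called changes of -0.78, -1.16 and -0.25 in the same order. The Nono KO libraries of Tyms and of Tk1 overlapped with WT through replicate 3 alone. In it Tk1 stood at 8.56 CPM, against 15.3 and 15.8 in the other replicates, and Tyms at 14.7 CPM, against 17.4 and 18.7. Without this library, 24 mitosis genes were called in Nono KO in place of 18. In the reported fit, Ccnb2 and Kif20a had the largest changes of the mitosis genes called in the same direction in all 3 knockouts. In the Xap5, Nono and Sox5 knockouts, Ccnb2 rose by 0.96, 0.79 and 1.89 and Kif20a by 1.53, 1.16 and 0.96. The rises of mitosis genes stood beside a called rise of Cdkn1a in every knockout and beside lower Ccnd1 and Ccnd2 in Xap5 KO and Sox5 KO. The S-phase list did not rise in Nono KO, where 3 of its genes rose and 8 fell.

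**Figure D4:**
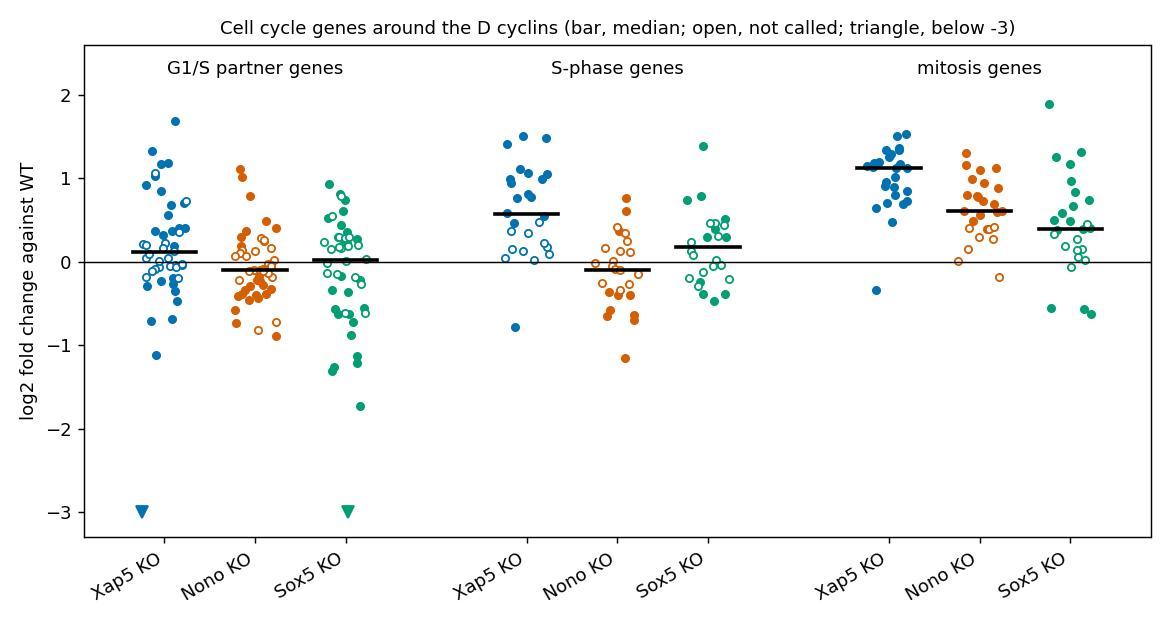
Log2 fold change against WT (vertical axis) of each tested gene of 3 lists in each knockout. Filled points had an edgeR adjusted p under 0.05, open points did not, the bar is the list's median, and triangles stand for E2f6, whose values lie below the axis limit. The mitosis median is above 0 in every knockout, at 0.61 in Nono KO and 0.39 in Sox5 KO, and is highest in Xap5 KO.

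Because the median change differed between chromosomes, the change of each member was set beside the median of all tested genes on its chromosome. In Xap5 KO, Cdkn1b at -0.31 and Ccnd2 at -0.39 stood near the chromosome 6 median of -0.25, which rests on 629 genes. In Nono KO, Ccnd2 at 0.99 and Ccnd1 at 0.46 stood far above medians of -0.19 and -0.18 for chromosomes 6 and 7. In Sox5 KO, Ccnd1 at -0.69 stood below a chromosome 7 median of 0.18, and Cdkn2d at 0.97 above a chromosome 9 median of 0.10. Cdkn1a at 0.73 and 0.72 in Nono KO and Sox5 KO stood above chromosome 17 medians of 0.02 in each. Genomic copy number was not measured.

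**Figure D5:**
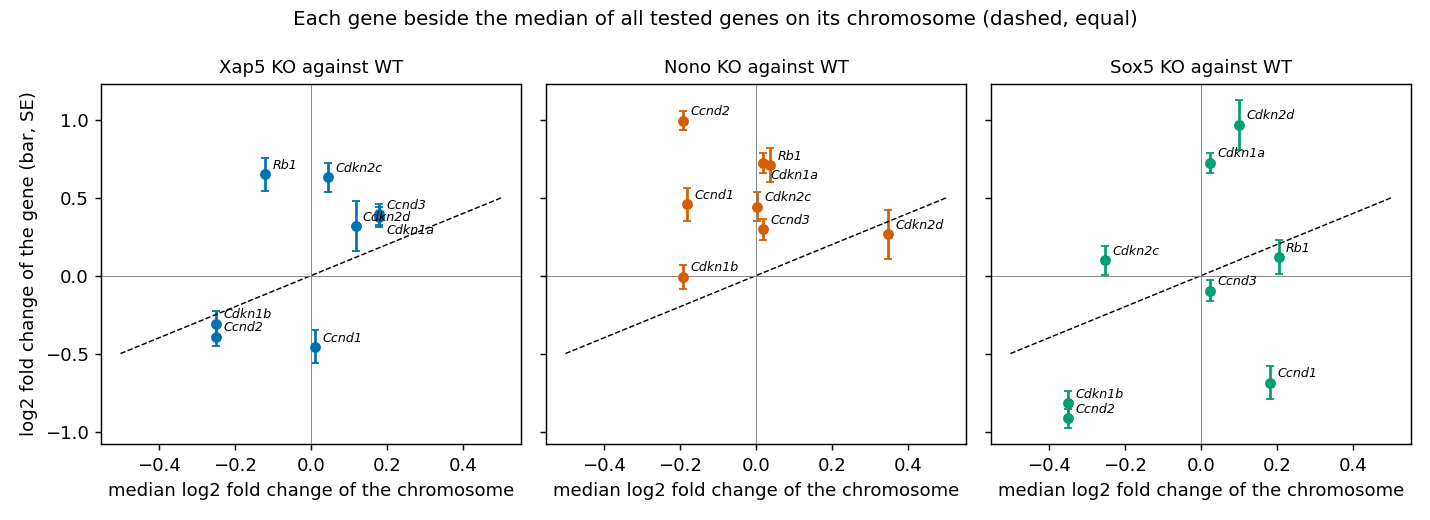
Log2 fold change of each tested member against WT, with its SE (vertical axis), beside the median log2 fold change of all tested genes on the same chromosome (horizontal axis), for each knockout. On the dashed line both are equal. Cdkn1b lies near the line in Xap5 KO, and Ccnd2 lies far above it in Nono KO.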

How the data were processed

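The values were estimated counts per gene that the authors deposited as whole numbers in 1 table, with 1 column per library. Per the submitters' processing notes, HISAT2 2.1.0, StringTie 1.3.3b, DESeq2 1.12.4 and the build GRCm39 were used, with no roles stated. The annotation and the handling of strand are not given in the sources used here, so reads of overlapping antisense genes cannot be told apart. Besides the overlaps given with the results, exons of Ccnd2, Cdkn1a, Cdkn1c, Cdk2, Cdk6, Ccna2, E2f8 and Foxo1 also overlap genes on the opposite strand. A count of 2 was 3302 cells of the table and a count of 1 was 857, so low values are not plain read counts. No rounding was needed, and every column was used.

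The fit used edgeR 4.0.16 (R 4.3.3) on the 11 libraries together, with a separate mean for every genotype, TMM scaling, edgeR's expression filter (count 10, total 15), the robust quasi-likelihood test and Benjamini-Hochberg adjustment over 13332 genes. CPM uses the TMM-scaled library size. Lengths, GC content, chromosomes and overlaps came from GENCODE M21 (GRCm38) by gene ID. Promoter windows came from RefSeq GRCm38.p6. The deposited table holds no coordinates. The common biological coefficient of variation was 10.6%. The fit was also run on simulated counts, and that run is not used here to judge any result.

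The members and lists were chosen with earlier results of these data known. All 10 members are described, with 9 fixed partner genes (Cdk4, Cdk6, Cdk2, Ccne1, Ccne2, Cdkn1c, Rbl1, Rbl2, E2f1). Other G1/S partner genes are named where called at 2-fold or more against WT. For the S-phase and mitosis lists, the 2 largest changes among genes called with 1 sign in all 3 knockouts are named, and genes of a list that fell against the others were named after their values were seen. Alternatives were RLE or library-total scaling, DESeq2 1.42.0, other filters, only the compared genotypes, a replicate block, chromosome and length-GC offsets, a 2-fold threshold, and leaving out each library.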

Additional observations from a re-analysis of the deposited data

How the results depend on the processing

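All 36 called member values kept their sign under every alternative run, and none lost its call when a library was left out. Requiring a 2-fold change left 0 members called higher and 0 lower in each knockout against WT, and 1, 0 and 2 between Xap5 KO and Nono KO, Xap5 KO and Sox5 KO, and Nono KO and Sox5 KO. It left 7, 2 and 6 G1/S partner genes, 6, 1 and 1 S-phase genes and 15, 4 and 4 mitosis genes. With the chromosome offset, 1 member was called lower in Xap5 KO and 7 S-phase genes were called in Sox5 KO. Leaving out 1 library gave 15 to 24 G1/S partner genes in Nono KO, 6 to 17 S-phase genes in Sox5 KO, and 11 to 24 (Nono KO) and 10 to 19 (Sox5 KO) mitosis genes. Where WT keeps 1 library, it is assumed to vary like the other groups. Without length scaling, the shares of Ccnd1, Ccnd2 and Ccnd3 were 44.6%, 37% and 18.4% for WT, 38.2%, 33.3% and 28.6% for Xap5 KO, 38.8%, 46.8% and 14.4% for Nono KO, and 42.9%, 30.4% and 26.7% for Sox5 KO. Values that turned sign were all uncalled in the reported fit. With the chromosome offset these were Ccnd3 (-0.0821) and Rb1 (0.1514) between Xap5 KO and Nono KO, Cdkn1b (0.2083) and Cdkn2d (-0.0987) in Nono KO, and Rb1 (-0.0865) in Sox5 KO. With library totals they were Cdkn1a between Nono KO and Sox5 KO (-0.0472), Cdkn2c in Sox5 KO (-0.0146) and Rb1 between Xap5 KO and Nono KO (0.0514). With the length and GC offset it was Ccnd3 in Sox5 KO (0.0128). Cdkn1b in Nono KO was 0.0060 with RLE, 0.0023 with at least 10 counts in every library, 0.0142 with only its 2 genotypes and 0.0059 with DESeq2. Leaving out 1 library gave ranges across 0 for Cdkn1a between Nono KO and Sox5 KO (-0.0266 to 0.0313), Cdkn1b in Nono KO (-0.0449 to 0.0143), and Cdkn2d (-0.0233 to 0.1293) and Rb1 (-0.1374 to 0.0149) between Xap5 KO and Nono KO. The causes were not tested. Under library totals the median of all tested genes was -0.183 in Nono KO and -0.120 in Sox5 KO, against -0.020 and -0.006 in the reported fit, with 2157 higher and 4989 lower calls in Nono KO and 3340 and 4798 in Sox5 KO. Deviations from the genotype means had r from -0.023 to 0.046 over 15 pairs of libraries with equal replicate numbers. Over 30 pairs with unequal numbers, r ran from -0.046 to 0.017. Centring on each genotype's mean ties these r values to each other, so they cannot decide whether the numbers pair the samples. With the replicate block 47 of 48 member values kept their call, while Ccnd1 between Xap5 KO and Sox5 KO became called (0.2198). Cdkn2d, at 288 and 289 counts in WT, had the largest SE of the members.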

Other observations

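Cdkn2a and Cdkn2b lie side by side on chromosome 4, and the 3 nearest protein-coding genes on each side in GENCODE M21 were examined after both were seen at 0. Mtap, which encodes methylthioadenosine phosphorylase and is the nearest on its side, stood at 1155 ± 23.7 CPM in WT (SD, n = 2), the 99.6 percentile of tested genes. It fell to 715 ± 18.2 CPM in Xap5 KO and 763 ± 32.5 CPM in Sox5 KO, and rose to 1359 ± 34.1 CPM in Nono KO (SD, n = 3 for each knockout). The log2 changes were -0.69, -0.60 and 0.23 (edgeR adjusted p = 2.32e-09, 8.92e-09 and 0.0019). On the same side as Mtap, Ifna1 had 0 counts and Ifne no more than 8 in any library. On the other side, Dmrta1 had no more than 2 counts in any library and Zfp352 had 0. Elavl2, the farthest of the 6, stood at 12.1 CPM in WT and fell by 1.93 in Sox5 KO (edgeR adjusted p = 3.95e-08) and by 0.53 in Xap5 KO (edgeR adjusted p = 0.0297). Its change of 0.01 in Nono KO was not called (edgeR adjusted p = 0.982).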
